A study of Chrysemys picta and Apalone spinifera with 20 samples.

Results

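Gonads of the spiny softshell turtle Apalone spinifera at embryonic stage 19 were compared between eggs incubated at 31°C and at 26°C. The comparison rests on 2 of the 20 RNA-seq libraries of the study, 1 library per temperature, chosen by species, stage and temperature, and it was read across all 12678 genes of the deposited Apalone table. The study sequenced whole trunks (stage 9), adrenal-kidney-gonad complexes (stages 12 and 15) and isolated gonads (stages 19 and 22) of this species, in which sex is set by sex chromosomes, and of the painted turtle Chrysemys picta, in which sex is set by incubation temperature. Each Apalone library was made from 5 embryos pooled before sequencing, which had been incubated for about 24 days at 26°C or 19 days at 31°C when they reached stage 19. The sources used here do not give the sex of the pooled embryos, so the temperature and the sex make-up of the pools cannot be told apart.

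In vertebrates the bipotential gonad grows from the coelomic epithelium beside the mesonephric kidney and the adrenal, and then becomes a testis or an ovary. Testis formation runs through supporting cells that switch on SOX9, DMRT1 and AMH, while ovary formation relies on FOXL2, RSPO1 and estrogen. Because the gonad lies against the kidney, the adrenal, sympathetic nerve cells and, close by, the liver, a dissected gonad can hold RNA of those tissues as well. Turtle embryos have no body heat of their own, so the incubation temperature is also the temperature of every cell in the embryo.

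The 2 gonad libraries held 6072826 (26°C) and 7645658 (31°C) counts, within the range of 5544730 to 9501484 over the 10 Apalone libraries. All counts were even, as when each read of a pair is counted, so tests were run on read pairs. Values are given as scaled counts, that is, the deposited count divided by the 75th percentile of its library and brought back to the scale of a count. A log2 ratio sets the 31°C against the 26°C library on scaled counts with 1 added, and a positive value is higher at 31°C. The gonad label was set beside DMRT1, a transcription factor of the testis. DMRT1 was between 1.5 and 11.4 scaled counts in the 6 libraries of stages 9 to 15 and reached 983 and 401 at stage 19. It was at 11.6 in the library labeled as 26°C gonads of stage 22, so DMRT1 cannot check the label of that library.

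Of the 11940 genes with a count in either library, 690 (5.78%) were called by Fisher's exact test (two-sided, Benjamini-Hochberg adjusted p under 1e-10), 250 (2.09%) higher and 440 (3.69%) lower in the 31°C library. The median log2 ratio of the 9008 genes with 20 or more read pairs was 0.02, and the 5th and 95th percentiles were -1.03 and 1.13. At least a 2-fold difference was seen in 1057 of those 9008 genes (11.7%), 580 (6.44%) higher and 477 (5.30%) lower at 31°C. The widest gaps were on the lower side, where 43 called genes differed by 16-fold or more, against 7 on the higher side. Scaling by library totals raised the median log2 ratio of all genes to 0.13 and turned the calls to 395 higher and 316 lower, that is 55.6% higher in place of 36.2%. The 2-fold genes then split into 732 higher and 392 lower, 65.1% in place of 54.9%. Other scalings moved the balance the other way, with 215 calls higher and 478 lower under TMM and 203 and 489 under the size factors of DESeq2. The 2-fold genes were then 526 higher and 518 lower under TMM, and 514 and 527 under the size factors of DESeq2. Fisher's exact test compared 2 libraries, not 2 temperatures, and with 1 pool per temperature no difference has a replicate check.

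**Figure D1:**
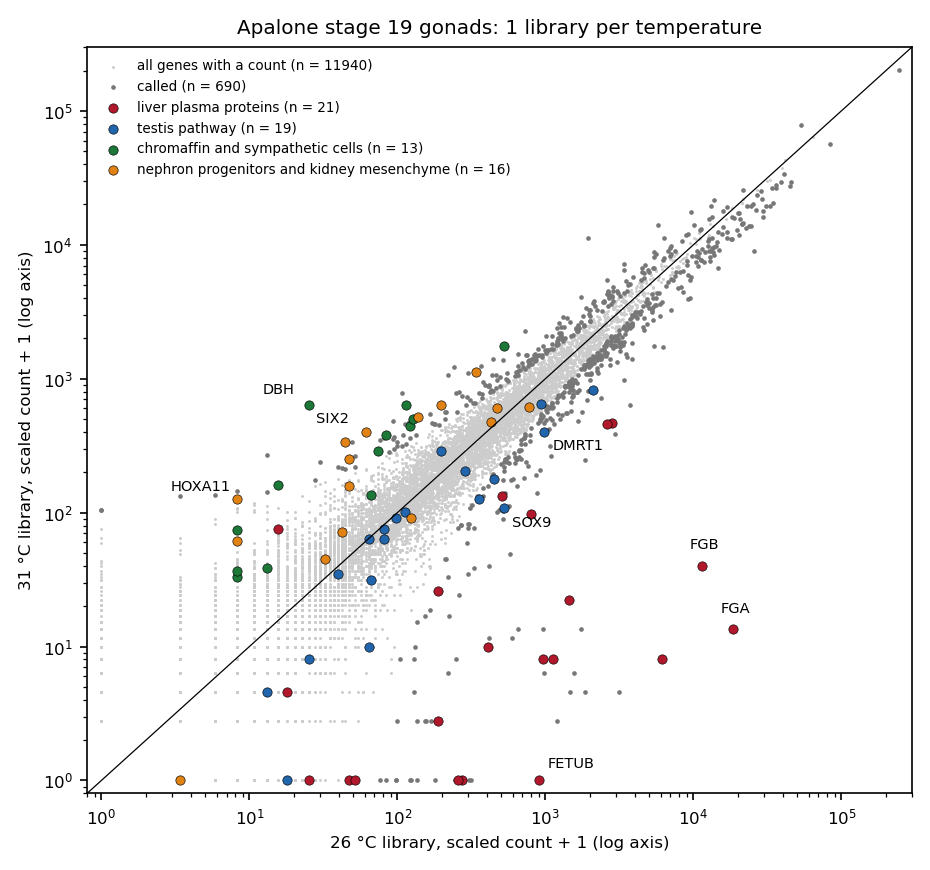
Scaled count + 1 of each gene in the 26°C library (x, log axis) against the 31°C library (y, log axis) at stage 19, with 11940 genes in light gray, the 690 called genes in dark gray and the members of 4 gene lists in color. Fibrinogen genes lie far below the diagonal, with FGA at 18635 against 12.4 scaled counts, and DBH lies above it at 24.2 against 639.

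Transcripts of proteins that the liver secretes into blood gave the widest differences. FGA, FGB and FGG, which encode the chains of the clotting protein fibrinogen, stood at 18635, 11468 and 6138 scaled counts in the 26°C library and at 12.4, 39.1 and 7.1 in the 31°C library. FGA was thus 1499.6-fold lower at 31°C (95% counting interval 727 to 3731), FGB 293.6-fold (194 to 469) and FGG 864-fold (337 to 3175). FETUB, which encodes the plasma protein fetuin-B, had 903 scaled counts at 26°C and no read at 31°C, at least 339-fold lower when 3 counts per library are taken as the floor. KNG1 (kininogen, the source of bradykinin) was at 271 and 0 and TTR (transthyretin, a carrier of thyroid hormone) at 256 and 0, at least 102-fold and 96.2-fold lower. Each of them differed by more than any called gene of the gonad lists.

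Other plasma protein genes differed in the same direction. ITIH3, an inhibitor that binds hyaluronan, had 1123 scaled counts at 26°C and 7.1 at 31°C. SERPINF2, SERPIND1 and PROC had 964 and 7.1, 1447 and 21.3, and 188 and 1.8. AGT, the precursor of angiotensin, had 408 and 8.9. The lipid carrier APOB differed less, with 2604 and 462 scaled counts and a 5.64-fold lower value at 31°C (4.92 to 6.49).

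A list of 52 plasma protein genes, drawn up after these values had been seen, counts them together. Of its 18 members with 20 or more read pairs, 17 were lower and 16 of those were called, where 4.88% of all genes with 20 or more read pairs were called lower, and the list median was -6.06. The exception was the complement gene C7, at 14.5 scaled counts at 26°C and 74.6 at 31°C, which was not called. The list made up 0.666% of the read pairs of the 26°C library (95% Wilson interval 0.657 to 0.676) and 0.0201% (0.0187 to 0.0216) of the 31°C library. The 26°C library was also the higher one at stage 15, with 0.492% against 0.0694%, whereas at stage 22 the shares were 0.0376% and 0.0391%. A further list of liver enzymes and regulators, also drawn up after the values were seen, had 7 members with 20 or more read pairs. Of these, 5 were lower and 2 higher, 4 were called lower and the median was -1.04. Its member HNF4A, a regulator shared by liver and kidney, was at 104 and 121 scaled counts at stage 19. In such bulk libraries fewer cells of a type and less RNA per cell cannot be told apart, and the part of liver RNA in the other differences was not tested. Leaving out 415 genes, namely the liver lists and every gene at least 4-fold lower at 31°C at stage 15, left 633 calls, 237 higher and 396 lower. Of the 415 genes, 56 had been called lower and 6 higher, so most calls were bound to remain. The removal therefore cannot show what part liver RNA had in the other calls.

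**Figure D2:**
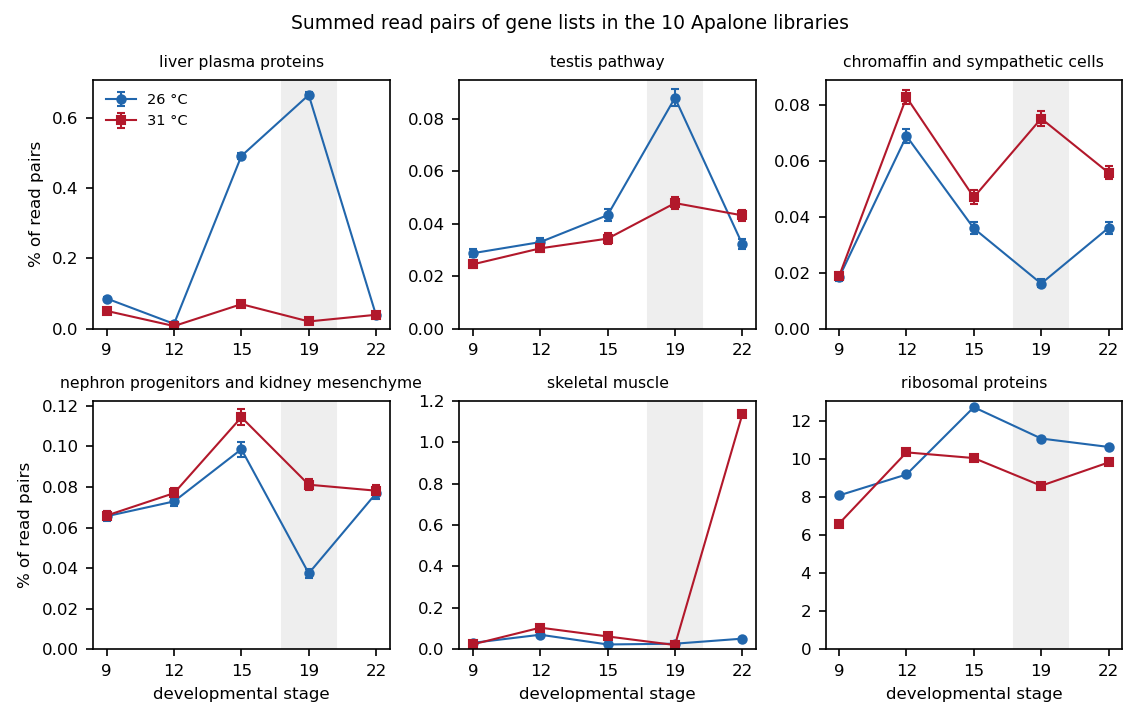
Share of all read pairs (%) taken by 6 gene lists (y) at the 5 developmental stages (x) in the 26°C (blue circles) and 31°C (red squares) Apalone libraries, with bars for the 95% Wilson counting interval and stage 19 shaded. At stage 19 the plasma protein list stood at 0.666% and 0.0201%, and the testis list at 0.0880% and 0.0479%.

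Enzymes of amino acid breakdown and of glucose synthesis, pathways of both liver and kidney, were mostly lower at 31°C. FBP1, which catalyzes a late step of glucose synthesis, had 6264 scaled counts at 26°C and 1724 at 31°C and was 3.63-fold lower (3.37 to 3.92). A list of these enzymes, drawn up after the values were seen, had 22 members with 20 or more read pairs. Of these, 17 were lower and 5 higher at 31°C, and 15 were called lower and none was called higher. Of all genes with 20 or more read pairs, 4.88% were called lower and 2.78% higher. The list had a median log2 ratio of -1.69. Among its members, GCSH and GLDC, which belong to the glycine cleavage system, were at 3708 and 636 and at 3848 and 1397 scaled counts. OTC of the urea cycle was at 920 and 208. FAH, AHCY, ALDH4A1 and SDS of the same list were not called lower. The list took 0.447% of the read pairs at 26°C and 0.198% at 31°C, and at stage 22 the shares were 0.429% and 0.404%.

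Genes of the testis pathway were lower in the 31°C library. SOX9, the transcription factor that sets Sertoli cell fate in mammals, had 524 scaled counts at 26°C and 107 at 31°C, a 4.92-fold lower value (3.68 to 6.66, adjusted p = 1.81e-32 by Fisher's exact test). DMRT1, a conserved regulator of testis identity, was at 983 and 401 (2.45-fold lower, 2.08 to 2.90). AMH, the hormone by which Sertoli cells remove the Müllerian duct, was at 353 and 126 (2.80-fold lower, 2.09 to 3.77), and its call was lost with library totals, at a log2 ratio of -1.37. CLDN11, a tight junction protein of Sertoli cells, was at 2085 and 827, and ZFPM2, the cofactor of GATA4 also called FOG2, at 449 and 178. These 5 were the called members among the 16 entries with 20 or more read pairs, of which 15 were lower and FHL2 alone was higher. Over all genes with 20 or more read pairs 4.88% were called lower, and the list median was -0.50 beside 0.02 over all genes.

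The other testis pathway entries were not called. PTGDS, which makes prostaglandin D2, was at 62.8 and 8.9 scaled counts, and GATA4 at 65.2 and 30.2. NR5A1, the nuclear receptor that drives steroid enzymes, was at 79.7 and 62.1, NR0B1 at 285 and 204, and FGFR2 at 932 and 648. Differences were smaller still for the AMH receptor AMHR2 (38.6 and 33.7), the growth factor FGF9 (96.6 and 90.5) and the ligand DHH (62.8 and 62.1). FHL2 stood at 196 and 286. DMRT3 (12.1 and 3.6, with 24.2 and 7.1 in its other entry) and HPGDS (16.9 and 0) had too few reads for a ratio to be read. The whole list took 0.0880% (0.0848 to 0.0914) of read pairs at 26°C and 0.0479% (0.0457 to 0.0501) at 31°C, and the shares of the 8 other Apalone libraries lay at or below 0.0433%.

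Most measured genes of the ovary pathway were lower at 31°C, but 2 of the 3 called genes were higher. Of the 11 members with 20 or more read pairs, 2 were called higher and 1 lower. Over all such genes 2.78% were called higher and 4.88% lower. CRABP2, which carries retinoic acid within cells, was called higher at 31°C, with 801 against 258 scaled counts (3.10-fold, 2.50 to 3.86). GATA2, a transcription factor of the fetal ovary in mice, was called higher at 449 against 191 (2.35-fold, 1.82 to 3.07), a call that was lost with TMM scaling (1.19) and with the size factors of DESeq2 (1.18). CTNNB1 (β-catenin) was called lower at 23594 against 27088, a 1.15-fold difference that was lost with library totals. The ovarian regulators FOXL2 and RSPO1 were not called, at 79.7 and 42.6 and at 128 and 71.0 scaled counts at 26°C and 31°C.

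The remaining members of the ovary list were not called. BMP2 was at 251 and 163 scaled counts, RUNX1 at 171 and 133, IRX3 at 101 and 79.9, IRX5 at 38.6 and 35.5 and FST (follistatin, which binds activin) at 505 and 479. The estrogen receptor genes ESR1 and ESR2 had 295 and 289 and 21.7 and 3.6. CYP19A1, the aromatase that makes estrogen, had 7.2 and 10.7 scaled counts, which is 9 read pairs over both libraries, so a difference was not detectable at this depth. Of the 11 members with 20 or more read pairs, 9 were lower and 2 higher, with a median of -0.20.

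Regulators of the early gonad and urogenital ridge were divided. Of the 13 members with 20 or more read pairs, 1 was called higher and 2 lower. Over all such genes 2.78% were called higher and 4.88% lower. WNT5A, a secreted signal of the gonadal mesenchyme, was called lower at 31°C, with 3208 scaled counts at 26°C and 1600 at 31°C (2.01-fold, 1.84 to 2.19). GATA6 was also called lower, at 2365 and 1271, and NR2F2, a nuclear receptor of interstitial cells in the mouse gonad, was called higher, at 4520 and 6670. EMX2 (1575 and 1099) and LHX9 (1097 and 786), which are needed for the mouse gonad to form, were not called, nor were TCF21 (256 and 510) and LHX1 (45.9 and 158). EMX2 passed with the size factors of DESeq2 (-0.57) and TCF21 with library totals (1.10). OSR1 (466 and 607), SIX4 (198 and 179), CBX2 (109 and 139), IGF1R (918 and 1051) and KDM3A (536 and 414) were not called either.

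**Figure D3:**
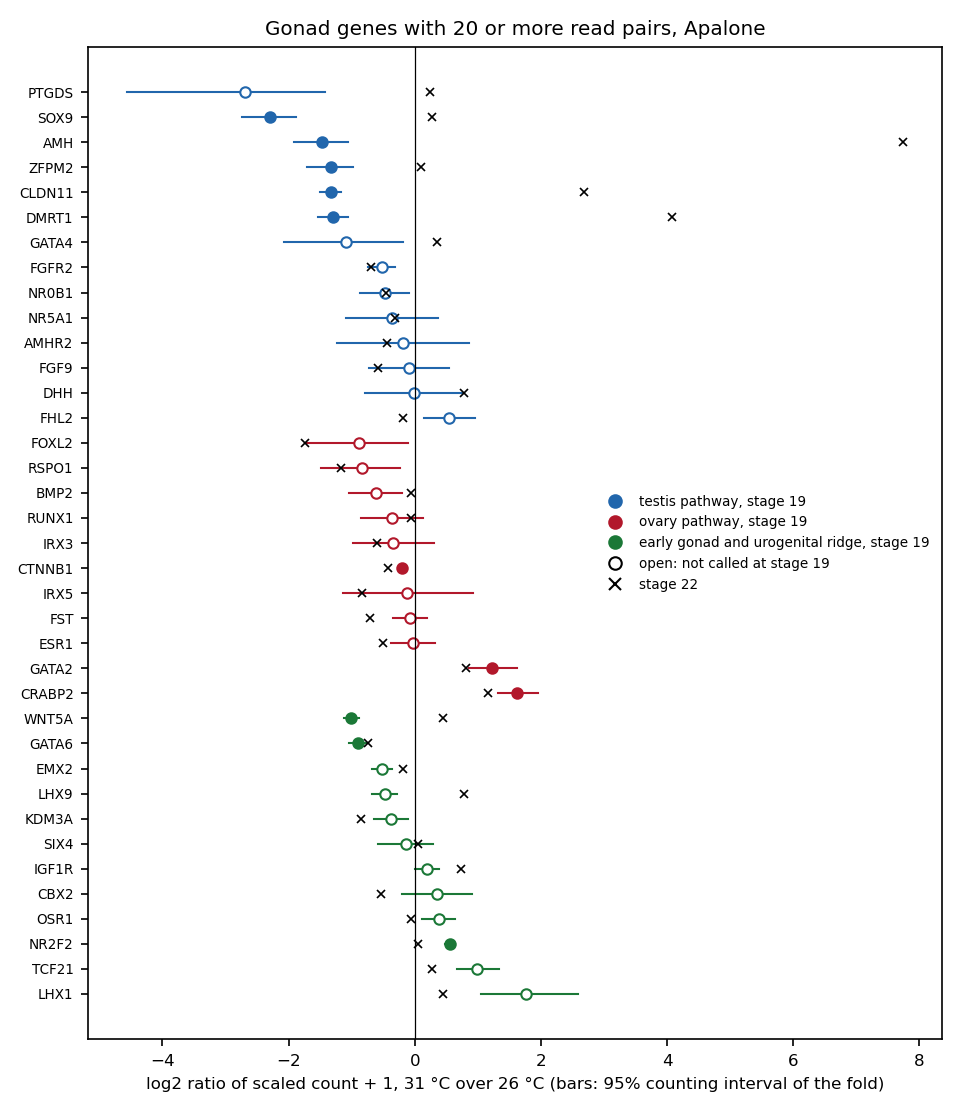
log2 ratio of scaled count + 1, 31°C over 26°C (x), of the gonad list entries with 20 or more read pairs that the text reports (y) at stage 19 (circles, filled where called, with 95% counting intervals of the fold) and at stage 22 (crosses). At stage 19, SOX9, AMH, ZFPM2, CLDN11 and DMRT1 lie to the left of 0, while at stage 22 DMRT1 and CLDN11 lie at 4.08 and 2.68. AMH lies at 7.74 at stage 22, a value set by the added 1 because AMH had no read at 26°C.

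Few genes of germ cells and steroid synthesis were measured. PIWIL1, which guards germ cell genomes against transposons, was called lower at 31°C at 432 and 188 scaled counts, although not with library totals (-1.08). Of the 6 germ cell genes with 20 or more read pairs, 5 were lower and the median was -1.18, with the germ cell RNA helicase DDX4, named after its value was seen, at 145 and 63.9. The germ cell list took 0.0133% of read pairs at 26°C and 0.0067% at 31°C. None of the 5 measured genes of steroid hormone synthesis was called, and none of the adrenal cortex list was measured. In the list of cholesterol synthesis, SQLE alone was called, at 440 and 194 scaled counts, and that call was lost with library totals (-1.07).

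Markers of sympathetic and chromaffin cells, the neural crest cells that release catecholamines, were higher in the 31°C library. DBH, the enzyme that makes noradrenaline, had 24.2 scaled counts at 26°C and 639 at 31°C (26.5-fold, 14.2 to 55.6). CHGA, a protein of the secretory granules of these cells, was at 121 and 446, and CHRNA3, a subunit of the nicotinic receptor of autonomic ganglia, at 14.5 and 160. The growth cone protein GAP43 was at 114 and 634 and the neuronal tubulin TUBB3 at 164 and 543. In the list of neurons and neural crest, 8 of 9 members with 20 or more read pairs were higher, 4 were called higher (2.78% of all such genes were) and the median was 1.87. The neurofilament gene NEFM went the other way, with 524 and 240 scaled counts, and its call was lost with library totals (-1.01).

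A chromaffin and sympathetic list, drawn up after the values were seen, had all 13 of its measured members higher at 31°C. Of these members 8 were called higher, where 2.78% of all genes with 20 or more read pairs were. The list took 0.0161% (0.0147 to 0.0176) of read pairs in the 26°C and 0.0751% (0.0724 to 0.0779) in the 31°C library. Among the 10 Apalone libraries the 26°C stage 19 library had the lowest share, and the 31°C stage 12 library the highest, at 0.0827%.

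Most listed kidney genes were also higher at 31°C. SIX2, which keeps nephron progenitors undifferentiated, had 60.4 scaled counts at 26°C and 401 at 31°C (6.64-fold, 4.39 to 10.5). FOXC2, of the kidney mesenchyme, was at 43.5 and 336, TFCP2L1, of the distal nephron and collecting duct, at 45.9 and 249, and HOXA11 at 7.2 and 124 (17.1-fold, 5.63 to 85.2). HOXA11 was the called member of the Hox list, in which 11 of 15 genes were higher and the median was 0.54. SLC12A1, the salt transporter of the thick ascending limb, was called higher at 1391 and 2860. SIX2 and SLC12A1 were the called members of the kidney list. Of its 6 genes with 20 or more read pairs, 5 were higher and 1 lower, with a median of 0.46. Over all such genes 2.78% were called higher.

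A list of nephron progenitors and kidney mesenchyme, again drawn up after the values were seen, had 13 of 15 members higher and a median of 1.73. Of these members 7 were called higher, where 2.78% of all genes with 20 or more read pairs were. SALL1 was at 338 and 1126 scaled counts in that list and EYA1 at 138 and 520. Despite its name, the list also holds TFCP2L1, of the distal nephron and collecting duct, and the calcium buffer CALB1, both called higher. The list took 0.0374% (0.0353 to 0.0396) of read pairs at 26°C and 0.0811% (0.0783 to 0.0840) at 31°C. At stage 22 these shares were 0.0769% and 0.0782%, and the 26°C stage 19 library had the lowest share of the 10 Apalone libraries. How much kidney and adrenal tissue went into each gonad pool was not recorded in the sources used here, and its part in the differences was not tested.

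Other named genes with wide differences on the higher side had varied roles. STC1, which encodes the secreted hormone stanniocalcin, had 106 scaled counts at 26°C and 781 at 31°C (7.35-fold, 5.38 to 10.3). The matrix protein DPT was at 48.3 and 337, the calcium sensor SCGN at 50.7 and 265, the phosphatase inhibitor PPP1R1B at 12.1 and 142 and the cadherin DCHS2 at 38.7 and 218. DACT2, a modulator of Wnt and TGF-beta signals, was at 79.7 and 362 (4.54-fold, 3.13 to 6.78). On the lower side, UCMA, a secreted protein of cartilage, had 280 scaled counts at 26°C and no read at 31°C, at least 105-fold lower.

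Cell cycle genes leaned to the 31°C library. TOP2A, the topoisomerase that untangles chromosomes before division, had 1737 scaled counts at 26°C and 4065 at 31°C (2.34-fold, 2.15 to 2.55), and the mitotic kinase PLK1 had 273 and 747. RRM2, which makes deoxynucleotides, was at 1669 and 2505 and the helicase subunit MCM5 at 725 and 1184, a call lost with TMM (0.67) and with DESeq2 size factors (0.66). Of the 17 measured genes, 16 were higher and 5 were called higher, where 2.78% of all genes with 20 or more read pairs were, with a median of 0.64. The list took 0.213% of read pairs at 26°C and 0.333% at 31°C, and at stage 22 it took 0.247% and 0.248%. EZH2, the Polycomb enzyme that methylates histone H3, was the called gene among 14 chromatin modifiers, at 1268 and 2189.

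Ribosomal protein genes differed little in fold but almost all in the same direction. RPL5 had 29569 scaled counts at 26°C and 16235 at 31°C (1.82-fold lower, 1.77 to 1.87), RPL24 had 13031 and 7525, RPL21 had 20423 and 11877 and RPL14 had 9687 and 5722. Of 44 ribosomal protein genes, 43 were lower and 38 were called lower, where 4.88% of all genes with 20 or more read pairs were. The median log2 ratio of these 44 genes was -0.51, and RPL18 alone was higher, by 0.07. Their summed share was 11.1% of read pairs at 26°C and 8.58% at 31°C. In the Chrysemys stage 19 gonads the median of the same genes was 0.80, higher at 31°C. Genes of oxidative phosphorylation did not share this pattern, with 13 of 33 higher, 20 lower and a call in each direction for ATP5B (2486 and 3742) and NDUFV2 (2851 and 1795).

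Chaperone genes were mostly higher at 31°C. HSPA8, the constitutive HSP70 chaperone, had 6327 scaled counts at 26°C and 11216 at 31°C (1.77-fold, 1.69 to 1.86), HSPH1 had 846 and 1484 and HSP90AA1 had 4728 and 7016. The collagen chaperone SERPINH1 was at 739 and 1513. Of 19 heat shock and chaperone genes, 16 were higher and 6 were called higher (2.78% of all genes with 20 or more read pairs were), with a median of 0.25. CIRBP, named for its induction by cold in mammalian cells, was called higher in the warm library, at 13876 and 21444 (1.55-fold). The splicing factors SRSF5 (3877 and 5752), SRSF3 (5411 and 6709) and SRSF1 (3194 and 4113) were called higher too, the last 2 of which were lost with DESeq2 size factors (0.26 and 0.32) and SRSF1 also with TMM (0.33). Of the 10 measured genes in their list of cold-inducible RNA-binding and splicing genes, 7 were higher and 3 lower, 4 were called higher and the median was 0.15.

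Matrix and cartilage genes differed in direction. COL1A1, the main fibrillar collagen of connective tissue, had 9685 scaled counts at 26°C and 17657 at 31°C (1.82-fold, 1.76 to 1.89), and POSTN (471 and 969), FBN2 (2640 and 4550) and COL5A1 (3476 and 5388) were also called higher. DCN (decorin) and SPARC were called lower, at 4860 and 2581 and at 26361 and 18069. Of 22 matrix genes 13 were higher and 9 lower, with 6 and 2 calls. Over all genes with 20 or more read pairs, 2.78% were called higher and 4.88% lower. In the cartilage list all 4 members with 20 or more read pairs were lower, with COL11A1 at 3399 and 975 and COL2A1 at 1251 and 499 called, and the list share was 0.0690% at 26°C and 0.0248% at 31°C.

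The skeletal and smooth muscle lists had 1 called gene each at stage 19. Over all genes with 20 or more read pairs, 2.78% were called higher and 4.88% lower. RYR1, the calcium channel of skeletal muscle, was called lower at 316 and 114 scaled counts, a call lost with library totals (-1.36). Of the 9 skeletal muscle genes with 20 or more read pairs, 7 were lower and 2 higher at 31°C, with a median of -0.99. The skeletal muscle list took 0.0260% of read pairs at 26°C and 0.0196% at 31°C. ACTG2, an actin of smooth muscle, was called higher at 416 and 902. In the smooth muscle list 6 of 7 genes were higher and 1 lower, with a median of 0.45. The calcium buffer CALB1 was called higher at 196 and 634.

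Signaling lists had calls in both directions. Over all genes with 20 or more read pairs, 2.78% were called higher and 4.88% lower. Members with that many read pairs numbered 6 in the retinoic acid list, 16 in the Wnt list, 19 in the TGF-beta family list and 5 in the Hedgehog list. In the retinoic acid list the synthetic enzyme ALDH1A2 (2476 and 3792) and the retinaldehyde reductase DHRS3 (676 and 1154) were called higher and ALDH1A1 (3148 and 2161) lower. Of Wnt genes, LGR4 (1582 and 978), a receptor for R-spondins, and the inhibitor SFRP1 (3718 and 2391) were called lower, with 8 of 16 genes on each side of 0. Of the TGF-beta family list, BAMBI (2423 and 1449) and SMAD3 (3029 and 2084) were called lower and ID2 (2643 and 3481) higher, the last of which was lost with TMM (0.36) and DESeq2 size factors (0.35). GAS1, a co-receptor for Hedgehog ligands, was called lower at 2771 and 1781. The glycolytic genes PKM (2626 and 4294) and TPI1 (2638 and 4287) and the calcium-binding chaperone CALR (6206 and 7762) were called higher. TEK, a receptor of the vessel lining, was called lower at 940 and 545, but not with library totals (-0.67), while 4 of the 6 measured genes of the vessel lining were higher and the list median was 0.22. None of the immediate early, macrophage, red blood cell, insulin and TRP channel lists had a called gene.

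**Figure D4:**
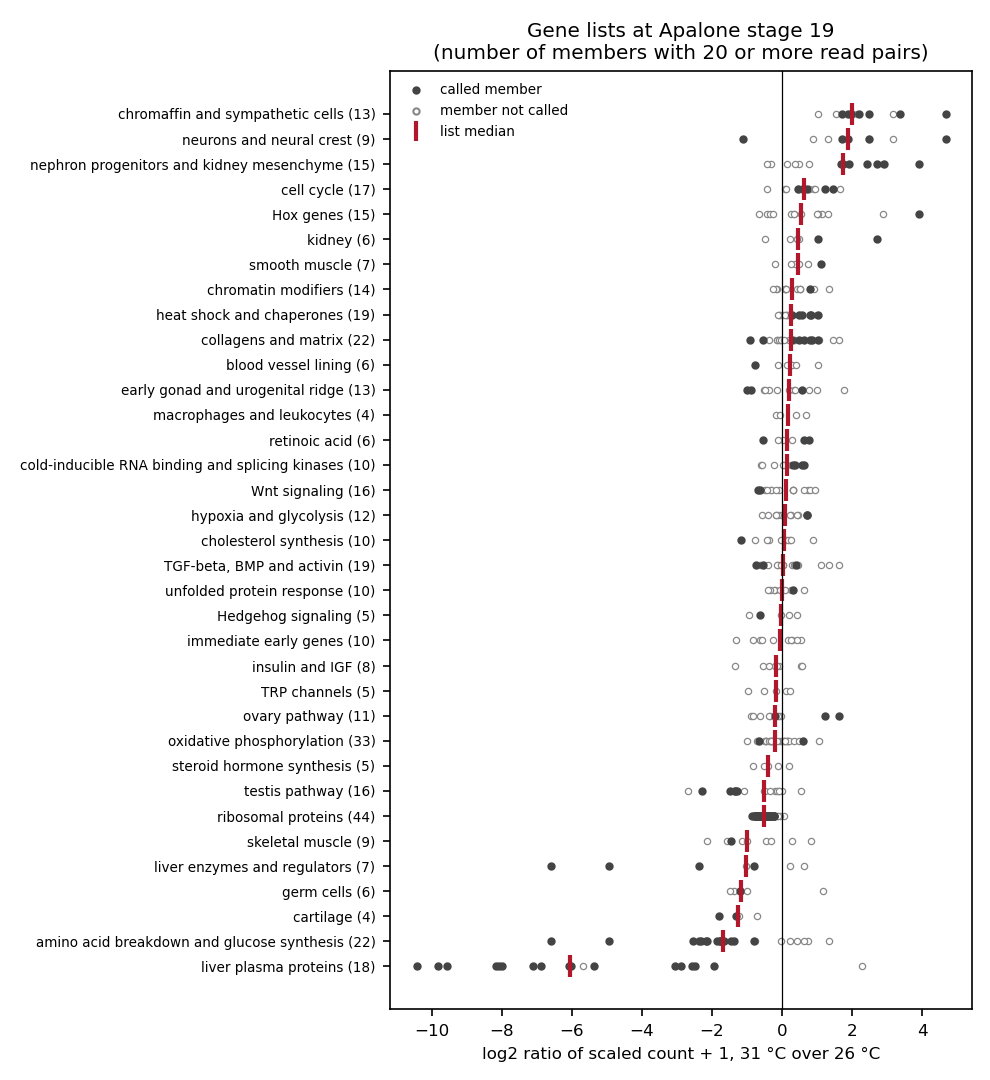
log2 ratio of scaled count + 1, 31°C over 26°C (x), of each gene with 20 or more read pairs in the lists with 4 or more such genes (y), with called genes filled and the list median as a red bar. The plasma protein list has the lowest median, at -6.06, and the chromaffin and sympathetic list the highest of the lists drawn.

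The only estimate of spread comes from the other stages. In edgeR's quasi-likelihood fit the stage 19 difference was set against how the 31°C and 26°C libraries differed at the 4 other Apalone stages. Of these only stage 22 was also gonad, and the others were trunks or adrenal-kidney-gonad complexes. The fit had 3 residual degrees of freedom. By this test 23 of 10212 genes passed at an adjusted p under 0.05 (0.225%), 2 higher and 21 lower at 31°C, and 1075 had an unadjusted p under 0.05. DBH was higher by 4.67 ± 0.68 (log2, SE, adjusted p = 0.0234 in edgeR). It was also higher at 31°C at stages 12 and 22, but was at 85.5 (26°C) and 86.6 (31°C) scaled counts at stage 15. At stage 9 DBH had 1.8 and 0. DACT2 was higher by 2.14 ± 0.35 (adjusted p = 0.0389 in edgeR). Of the 21 lower genes, the plasma protein genes FETUB, ITIH3, SERPINF2, PROC, AGT and APOB passed, as did FBP1 (-1.90 ± 0.25, adjusted p = 0.0187 in edgeR), GCSH, UCMA and the phosphatase gene PTPRZ1, which had 645 scaled counts at 26°C and 156 at 31°C. CCDC152 passed as well, at 5433 and 1756, but it overlaps the selenoprotein gene SELENOP on the opposite strand in human, and the counting did not use strand. The other 10 entries have no symbol. The fibrinogen genes FGA, FGB and FGG did not pass this test, at -10.56 ± 1.95, -8.23 ± 1.63 and -9.74 ± 1.79. The plasma protein genes KNG1, TTR and SERPIND1 did not pass either.

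None of the gonad list genes passed that test. The number that passed was 13 without the stage 9 libraries and 12 without those of stage 12, and it was 104 and 152 without those of stages 15 and 22. All 23 genes were among the 104 and among the 152, whereas 9 of them were among the 13. DESeq2 with the same design passed 83 genes, 19 of the 23 among them. The stage 19 difference was also tested against a single difference fitted jointly to the 4 other stages. No gene passed in edgeR (561 at an unadjusted p under 0.05, smallest adjusted p 0.162) and 22 did in DESeq2. Without stage 15 the edgeR count was 28, and without stage 22 it was 13.

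The stage 22 gonads, also 1 pool per temperature, gave a comparison that shares no library with stage 19. Of the 250 genes called higher at stage 19, 246 had 20 or more read pairs at stage 22 and 200 of these (81.3%) were again higher at 31°C. Of the genes called lower, 290 of 402 (72.1%) were again lower. Over all genes the sign was the same in 65.8%. Of the genes at least 2-fold higher at stage 19, 403 of 507 (79.5%) were again higher. Of those at least 2-fold lower, 235 of 393 (59.8%) were again lower, a share below that over all genes. SIX2 was at 39.6 and 302 scaled counts at stage 22, DBH at 147 and 513 and FOXL2 was at 300.2 and 88.9.

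Several testis genes were higher at the other temperature at stage 22. AMH was at 353 (26°C) and 126 (31°C) scaled counts at stage 19 and at 0 and 213 at stage 22, and had at most 2.8 in the libraries of stages 9 to 15. DMRT1 was at 983 and 401 at stage 19 and at 11.6 and 213 at stage 22. CLDN11 was at 2085 and 827 and then at 142 and 915. The difference between the stages passed edgeR's quasi-likelihood test (2 residual degrees of freedom) for DMRT1 (log2 -5.51 ± 0.66, adjusted p = 0.000849), for CLDN11 (-4.07 ± 0.46, adjusted p = 0.000614) and for AMH (adjusted p = 0.00149). In that fit stages 19 and 22 each had a temperature difference of their own. Its spread therefore came from the trunks and complexes of stages 9, 12 and 15, and holds no spread between gonad pools. SOX9 and ZFPM2 did not pass, with 140 and 169 and with 182 and 195 scaled counts at stage 22. Among the 26°C libraries DMRT1, AMH and CLDN11 were highest at stage 19 and low at stage 22, while among the 31°C libraries they were high at both gonad stages.

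In total 68 of 10212 genes (0.666%) differed between stages 19 and 22 by that test, and 61 of them were lower at 31°C at stage 19 and higher at stage 22. Skeletal muscle genes were among them, with CKM, the muscle creatine kinase, at 459 and 336 at stage 19 and at 1238 and 30954 at stage 22, and the myosin light chain MYL1 at 50.7 and 10.7 and at 16.3 and 3003. The skeletal muscle list took 1.14% of read pairs of the 31°C stage 22 library and 0.0505% of the 26°C one. ACTG2 and CALB1 differed the other way, with 6726 and 674 and with 1690 and 597 scaled counts at stage 22. The muscle share of that single pool stood apart, and its part in the 68 genes was not tested.

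**Figure D5:**
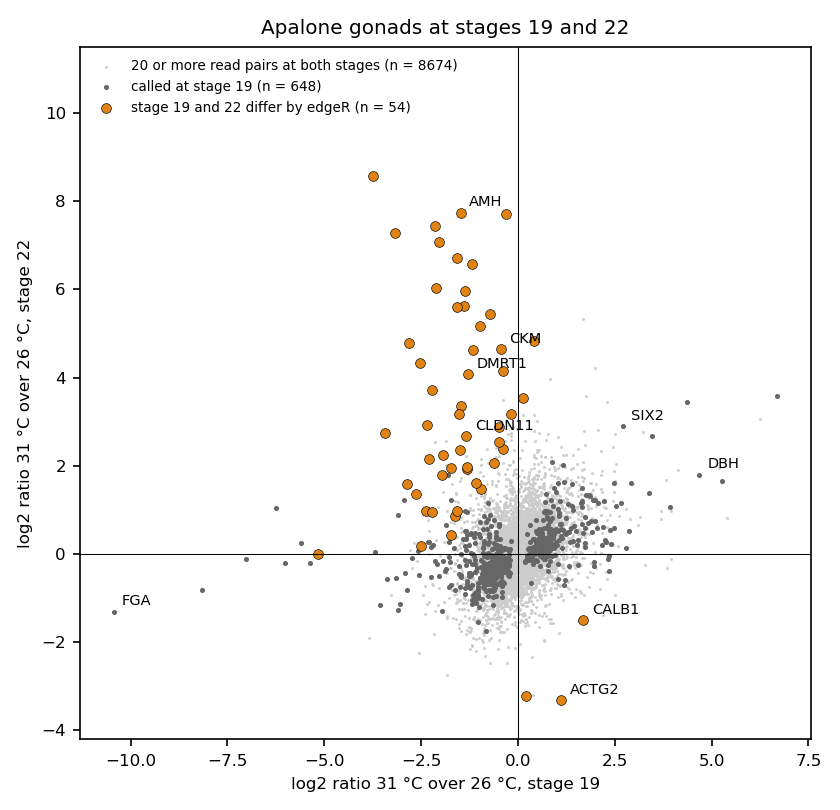
log2 ratio of scaled count + 1, 31°C over 26°C, at stage 19 (x) and stage 22 (y) of 8674 genes with 20 or more read pairs at both stages, with 648 genes called at stage 19 in dark gray and 54 genes whose ratios differed between the stages by edgeR in orange. AMH, DMRT1 and CLDN11 lie in the upper left, and SIX2 and DBH in the upper right.

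At the other stages, 79.9% of the genes called higher and 81.4% of those called lower at stage 19 had the same sign at stage 15 (67.9% over all genes), and 57.8% and 53.9% at stage 9 (49.9% over all genes). In stage 19 gonads of Chrysemys, 169 of 250 (67.6%) called higher and 272 of 436 (62.4%) called lower in Apalone had the same sign, beside 59.0% over all genes. With library totals, 51.2% of the Apalone calls had the same sign in Chrysemys. The share over all genes was not computed with that scaling, so the 51.2% has no background value beside it. A test of the difference between the species passed 1 of 11870 genes (0.00842%) in edgeR, an entry with no symbol, with 701 at an unadjusted p under 0.05, and 7 in DESeq2.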

How the data were processed

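Gonad libraries of stage 19 Apalone embryos were grouped by the species, temperature and stage in their labels, 1 library per group. Each file held counts per gene, which the authors deposited as raw read counts without normalization. Reads were trimmed with Trimmomatic 0.27 (submitters' processing notes), mapped by the authors with GSNAP to annotated Chrysemys genes and counted with HTSeq without strand, so genes that overlap or have near copies can share or lose reads, and Apalone reads that diverge from Chrysemys can be lost. The 738 genes with no count in either library were not tested. Symbols came from the reference gene table (5519 entries), a supplementary annotation (1255) or the authors' names (11), and 6785 of 12678 entries have one.

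Counts were halved to read pairs and scaled by the 75th percentile. Fisher's exact test (scipy 1.17.1) was adjusted over 11940 genes. edgeR 4.0.16 (R 4.3.3) was fitted on counts with stage as a block, and DESeq2 1.42.0 was the alternative. Depth was 3036413 and 3822829 read pairs, and intervals (95%, exact conditional for folds, Wilson for shares) and floors (3 counts) cover counting error only. Scripts were tested on simulated data. Named genes were the 12 most extreme calls with a symbol in each direction, every measured gene of 3 gonad lists, up to 4 called genes per direction of each other list and up to 10 per direction for edgeR at stage 19. Other genes named were chosen after their values were seen. The libraries, 33 lists and 5 further lists were chosen with earlier results of these data known. Alternatives were other scalings, filters, pseudocounts and tools, and leaving out stages. Nothing says that the pools are replicates of a temperature. A few genes that the rule names are not reported here, although list counts and medians include them.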

Additional observations from a re-analysis of the deposited data

Results flagged for a closer look

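The difference between 31°C and 26°C was not the same at stages 19 and 22 for 17 named genes by edgeR's quasi-likelihood test of that difference, with 1 pool per temperature and stage. Values are the stage 19 log2 difference minus the stage 22 one, so a negative value was lower at 31°C at stage 19 relative to stage 22. Among testis genes, AMH was at -11.29 (adjusted p = 0.00149), DMRT1 at -5.51 (adjusted p = 0.000849) and CLDN11 at -4.07 (adjusted p = 0.000614).

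Among muscle genes, CASQ1 was at -15.64, MYL1 at -9.78, SLN at -9.41, TNNC1 at -7.45, ACTN3 at -6.24, CKM at -5.15, RYR1 at -4.90 and MEF2C at -3.42, with adjusted p-values from 0.000385 to 0.00142 in edgeR. The secreted proteins UCMA, SERPINF2 and APOB were at -11.42, -7.49 and -2.73, with adjusted p-values of 0.0273, 0.0069 and 0.0138. ACTG2 was at 4.38 (adjusted p = 0.0014), PCP4 at 3.4 (adjusted p = 0.0419) and CALB1 at 3.14 (adjusted p = 0.00207), on the opposite side. AMH had no read in the 26°C library of stage 22, and CASQ1 and UCMA had none in the 31°C library of stage 19, so their fitted values depend on the prior count and are no bound. CASQ1 and SLN had 8 and 13 read pairs over both libraries at stage 19, too few for a ratio at that stage.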

How the results depend on the processing

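No paired analysis was possible because the labels carry no replicate numbers, other than the pairing of temperatures within a stage that the edgeR fits already hold. Of the 132 named genes, none of those called changed direction. For genes that were not called, changes of sign near 0 were not counted. In all, 128, 126 and 124 named genes kept their side of the threshold with TMM, DESeq2 size factors and library totals. Fisher calls rose to 1339 on counts as deposited, since each pair then counts more than once. The 2-fold genes numbered 655 with 50 read pairs or more and 2689 with no filter. Leaving out the liver lists and every gene at least 4-fold lower at 31°C at stage 15, an alternative chosen after seeing the data, gave 633 calls and 950 2-fold genes. Of the genes left out, 56 had been called lower and 6 higher, so most calls were bound to remain. The share of same signs at stage 22 was 75.6% over calls and 70.9% over 2-fold genes, and in Chrysemys 64.3% over calls and 51.2% with library totals. The stage 19 test in edgeR passed 83 genes in DESeq2, 129 with no filter and between 12 and 152 with a stage left out. Against the other stages it passed 22, 8 and between 0 and 28, against stage 22 it passed 132 with no filter, and between species it passed 7 in DESeq2. The cause of these shifts was not tested. With no filter 5 list medians moved, and with a pseudocount of 5 it was 1, that of the plasma proteins. The signs of list medians turned only in lists near 0. Genes under 20 read pairs support no ratio, and no depth makes up for 1 pool per temperature.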

Other observations

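Of the 690 calls, 494 had a symbol, so the account of named genes leaves the other entries undescribed. Several lists had no called gene. Over all genes with 20 or more read pairs, 2.78% were called higher and 4.88% lower, and the median log2 ratio was 0.02. At those shares a list of 10 or fewer genes can hold no call without differing from all genes. The immediate early genes, which respond within minutes to stress or handling, had a median log2 ratio of -0.05 over 10 genes (0.06 with library totals), and 5 lay on each side of 0. The insulin and IGF list, which sets embryo growth, had a median of -0.17 over 8 genes. TRP channels, among them sensors of heat and cold, had 5 genes with 20 or more read pairs and a median of -0.18. Markers of macrophages and leukocytes had a median of 0.18 over 4 genes, and red blood cell genes one of 0.32 over 2. The coelomic epithelium list had one of -0.22 over 2, and the steroid hormone synthesis list one of -0.41 over 5, of which 4 were lower at 31°C.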
